A study of Mus musculus with 2 samples.

Results

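The cells described here are the tumour macrophages that carried Folr2 transcripts together with those of Fcna, Cbr2 or both. They were chosen by a gate on raw counts of unique molecular identifiers (UMIs, the count of captured transcript molecules). A member had at least 1 Csf1r UMI, no Cd3e UMI, at least 0.2% of its gene UMIs from C1qa, C1qb and C1qc, at least 2 Folr2 UMIs, at least 3 UMIs of Fcna and Cbr2 together, and fewer than 4 UMIs of Mki67 and Top2a. The gate found 910 members among 11552 cells, that is, barcodes with 1000 or more gene UMIs, 500 or more genes and no more than 10% of UMIs from mitochondrial transcripts. Because these genes chose the members, their levels are given as a description and were not tested.

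The series profiled CD45+ leukocytes that were sorted from squamous cell carcinomas grown under the skin of untreated FVB mice. Each tumour was a mosaic of the carcinoma lines CIT6 YFP and CIT9 RFP, named for the fluorescent reporter each carries, which had been injected together. Sections received light-printed oligonucleotide codes (ZipSeq) before digestion and 10x 3' v3 sequencing. The files hold 2 tumours of this 1 group, named replicate 1 and replicate 3 after the labels, and the labels do not say whether they came from separate animals or give the age of the mice. Spread between these samples may therefore be partly technical. Replicate 1 held 89040909 gene UMIs and replicate 3 held 170328781. The libraries share 9 cell barcodes, and no barcode was a member in both.

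Folr2 encodes a folate receptor found on many tissue-resident macrophages, Fcna encodes ficolin A, a soluble lectin that can start the lectin pathway of complement, and Cbr2 encodes a carbonyl reductase. Resident macrophages settle in a tissue and take up dying cells, iron-bearing debris and circulating proteins through scavenger receptors, whereas monocytes arrive from blood and can turn into macrophages or antigen-presenting cells. In skin and in several tumours, macrophages with FOLR2 or LYVE1 are known to lie near blood vessels. Counts of transcripts cannot show how a cell arose, so no origin is assigned here.

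The 3 genes that define the members lie on separate chromosomes of GRCm38 (mm10), all on the minus strand. Folr2 (ENSMUSG00000032725) spans chr7:101839988-101857194, Fcna (ENSMUSG00000026938) spans chr2:25624666-25628030 and Cbr2 (ENSMUSG00000025150) spans chr11:120729489-120732114. Because they were used together to choose the cells, the sequence just upstream of each annotated start is shown, 5′ to 3′ on the gene's strand, from the RefSeq promoter table of GRCm38.p6. Capitals mark GGAAGT, a core bound by PU.1 and other ETS factors, or TGCTGA, a MAF half-site, searched on both strands; the letters of these motifs do not overlap one another in these windows.
Folr2, chr7:101857195-101857440: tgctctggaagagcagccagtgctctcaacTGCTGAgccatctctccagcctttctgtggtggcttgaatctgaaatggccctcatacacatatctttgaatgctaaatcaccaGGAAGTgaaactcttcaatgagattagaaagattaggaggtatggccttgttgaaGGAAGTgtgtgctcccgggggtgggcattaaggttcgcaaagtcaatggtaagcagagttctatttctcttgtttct
Fcna, chr2:25628031-25628224: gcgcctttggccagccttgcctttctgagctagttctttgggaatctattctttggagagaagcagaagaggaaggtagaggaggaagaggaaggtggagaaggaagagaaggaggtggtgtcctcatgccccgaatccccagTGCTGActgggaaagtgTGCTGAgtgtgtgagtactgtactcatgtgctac
Cbr2, chr11:120732115-120732271: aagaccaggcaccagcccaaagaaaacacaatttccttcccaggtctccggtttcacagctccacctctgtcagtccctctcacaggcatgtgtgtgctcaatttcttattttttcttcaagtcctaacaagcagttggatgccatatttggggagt
The Folr2 window of 246 bases held GGAAGT 2 times and TGCTGA 1 time. Among 32851 promoter windows of that length, 19.3% held GGAAGT and 15.9% held TGCTGA. The Fcna window of 194 bases held TGCTGA 2 times, against 12.6% of windows with at least 1 match. In the Cbr2 window of 157 bases neither string was found. These matches describe letters and do not show binding.

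Members were a sizeable share of the macrophages in both tumours. Replicate 1 held 512 members, 10.6% of its 4818 cells (95% Clopper-Pearson interval 9.77 to 11.5), and replicate 3 held 398, 5.91% of 6734 cells (5.36 to 6.50), a mean of 8.27% ± 3.34 (SD, n = 2). Among non-dividing C1q macrophages the shares were 18.1% (16.7 to 19.6) and 14.8% (13.5 to 16.2). The intervals cover counting error only. At a mitochondrial limit of 5% the members fell to 193 and 331, and the shares of all cells were 6.41% and 5.81%. The gap between the tumours in the share of all cells was thus small at the stricter limit.

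The gate on raw UMIs favoured deeply sequenced cells. Members had a median of 22975.5 UMIs in replicate 1 and 29766 in replicate 3, while the other C1q macrophages had 17676 and 22217. The median mitochondrial share was 5.38% and 3.98% in members against 4.80% and 3.87%. Cells among the highest doublet scores made up 5.08% and 5.53% of members against 2.96% and 3.86%. When every cell of at least 5000 UMIs was thinned to 5000 UMIs, the same gate found only 97 and 45 members, so the number of members depends on depth. The part of depth, mitochondrial share and doublets in the comparisons that follow was not tested beyond the alternative settings given with them.

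Within the gate, the 3 genes differed in balance between the tumours. A median member held 5 Folr2 UMIs in replicate 1 and 7 in replicate 3. For Cbr2 the medians were 3 and 5. Fcna went the other way, with medians of 3 and 1, and no Fcna UMI was found in 9.18% of members of replicate 1 against 32.2% in replicate 3. Members of replicate 3 thus passed more often on Cbr2, of which 6.28% had none, against 18.4% in replicate 1.

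**Figure D1:**
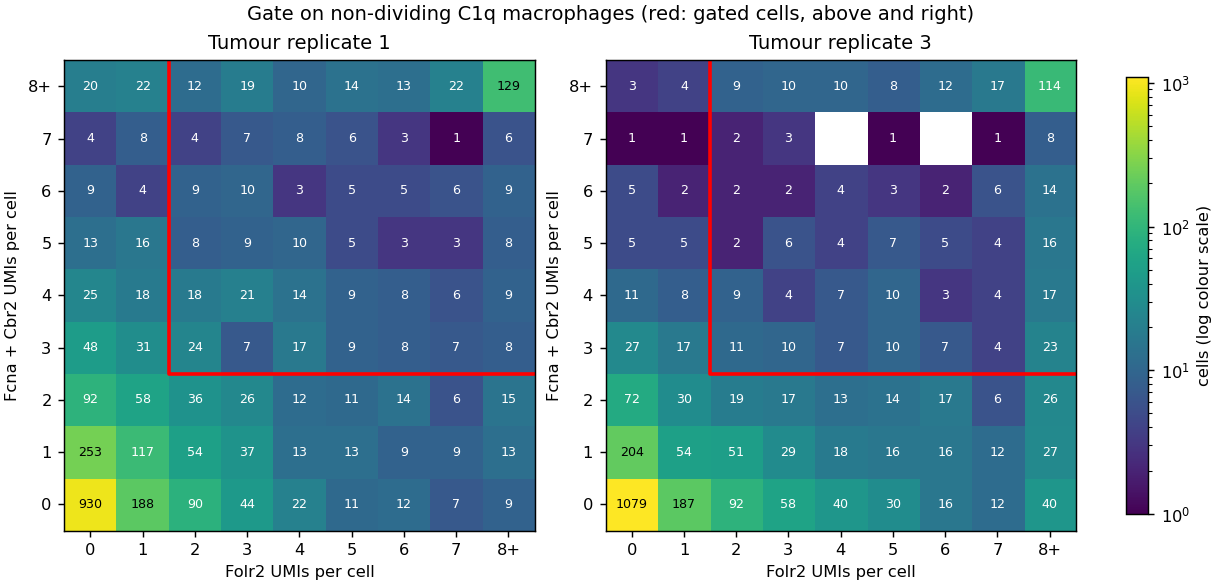
Number of non-dividing C1q macrophages at each count of Folr2 UMIs (horizontal axis) and of Fcna plus Cbr2 UMIs (vertical axis), 1 panel per tumour, with a log colour scale and 8+ for 8 or more. The cells with none of these UMIs are the fullest bin, at 930 and 1079, and the members lie above and to the right of the red line with no gap separating them from the rest.

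Cells just inside and just outside the limit on Folr2 were close in H2-Aa and less close in some other genes. In replicate 1, 75 members had exactly 2 Folr2 UMIs and 99 cells missed the gate with 1. H2-Aa stood at 4868 CPM (the usual depth-scaled unit, a class's UMIs of a gene relative to all its gene UMIs) just inside and 5367 CPM just outside. Mrc1, the mannose receptor, stood at 715 and 678 CPM, and Cd163 at 58.0 and 26.1 CPM. In replicate 3 the 35 cells just inside and 37 just outside had 6367 and 6826 CPM of H2-Aa, 520 and 368 CPM of Mrc1, and 0 and 4.32 CPM of Cd163. Cells with none of the 3 genes, 930 and 1079 of them, had 10419 and 12804 CPM of H2-Aa.

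Across the thinned non-dividing C1q macrophages (2745 and 2639 cells), Folr2 had Spearman correlations with Fcna of 0.310 in replicate 1 and 0.207 in replicate 3. With Cbr2 they were 0.273 and 0.268. With H2-Aa they were -0.340 and -0.339. These cells share a library and a fixed depth, and the values are descriptions over cells, not over samples.

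By the choice of the gate, levels of the defining genes were higher in members than in the other C1q macrophages. Folr2 stood at 297 CPM in replicate 1 and 264.5 CPM in replicate 3 in members, against 55.1 and 59.1 CPM in the other C1q macrophages. Fcna stood at 229 and 61.4 CPM against 28.8 and 9.20 CPM. Cbr2 stood at 194 and 207 CPM against 25.6 and 14.5 CPM. Free RNA, measured in barcodes of 10 to 100 UMIs, held Folr2 at 57.4 and 63.0 CPM. In T cells, which should lack the gene, Folr2 stood at 0 and 1.87 CPM, with a UMI in 0% and 1.41% of cells at median depths of 4362 and 6550.5 UMIs.

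Macrophage identity was checked with markers outside the gate. Adgre1, Fcgr1, Mertk and Cd68 summed to 1497 and 1485 CPM in members, against 18.7 and 30.7 CPM in T cells. The T cells were gated to have no Csf1r UMI and little C1q, which in part sets their low values. The T cell list (6 genes) summed to 12.8 and 9.37 CPM in members against 6141 and 6125 CPM in T cells. The dendritic cell list (7 genes) summed to 8.92 and 15.2 CPM, against 6.56 and 13.7 CPM in the other C1q macrophages. The keratinocyte or carcinoma list (6 genes, of which Krt5 and Trp63 were at 0) summed to 4.74 and 3.86 CPM in members against 4.07 and 2.465 CPM. The fibroblast list (6 genes, none at 0) summed to 67.99 and 18.9 CPM in members against 50.4 and 18.35 CPM in the other C1q macrophages and 1.26 and 11.3 CPM in the Ly6c2-high phagocytes. The endothelium list (5 genes, Prox1 at 0) summed to 19.0 and 5.01 CPM against 22.3 and 7.455 CPM in the other C1q macrophages. The part of such transcripts in the comparisons was not tested. The neutrophil list stood at 1236 CPM in members of replicate 1 and 36.0 CPM in replicate 3, close to the 1393 and 50.6 CPM of the other C1q macrophages of the same tumours.

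Next, members were compared with the other C1q macrophages, 2193 cells in replicate 1 and 2126 in replicate 3, which asks what else differs in cells that carry the defining genes. These cells met the same limits on Csf1r, Cd3e, C1q, Mki67 and Top2a but were not members. Cells of the Mgl2 Asgr2 phagocyte gate, compared further below, were left out of them, while members were not filtered on Mgl2 or Asgr2. Among the genes higher in members were F13a1 (coagulation factor XIII), C4b (complement C4) and the scavenger receptors Stab1 and Cd163, and 8 of 11 MHC class II presentation genes were lower. UMIs were summed per tumour and class and tested with edgeR's quasi-likelihood test, with the tumour as a block, the Benjamini-Hochberg adjustment over all genes and a threshold of 0.05. Among 11942 genes, 129 had higher (1.08%) and 81 had lower (0.678%) transcripts in members, 210 in all (1.76%), and all 210 had the same direction in both tumours. Both classes were drawn from the same libraries, and a gene that varies with Folr2, Fcna or Cbr2 will differ between them, so these calls describe what goes with the gate and are not independent evidence for a cell type. Only 21 genes were called without replicate 1 and 51 without replicate 3, of which 16 and 38 were among the 210. C4b, F13a1, Gas6, Itsn1, Spp1, Timp2 and Wfdc17 were called in both of these fits, and no gene was called when the tumour was left out of the model as a block (265 at an unadjusted p under 0.05). The fits without a replicate dropped only the compared classes of that tumour and kept its other classes. With 10% of free RNA subtracted 95 were called, and at a mitochondrial limit of 5% 129 were.

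**Figure D2:**
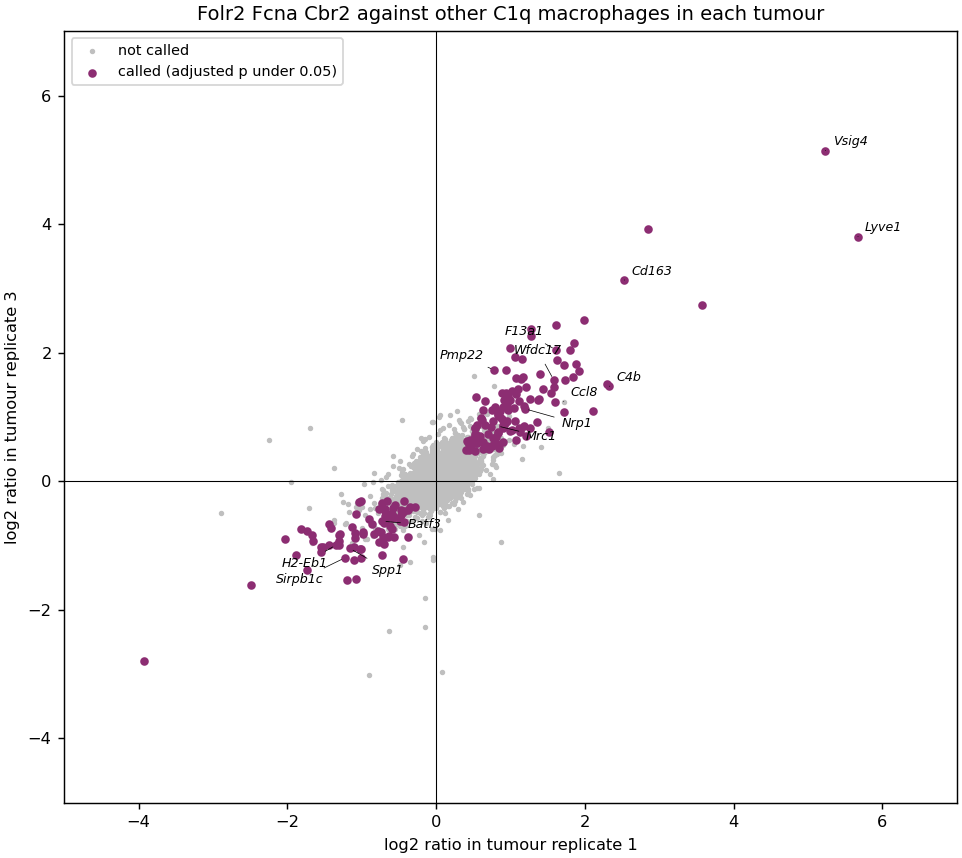
Each point is a gene, with the log2 ratio of members to other C1q macrophages in replicate 1 (horizontal) and replicate 3 (vertical), purple where called by edgeR at an adjusted p under 0.05 and grey where not called and at 10 CPM or more in either class. The called genes lie in the quadrants of equal sign, and Lyve1 and Vsig4 lie farthest to the upper right.

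Of the resident macrophage list, 7 of 16 tested genes were higher, none were lower and 9 did not pass, with a median log2 difference of 0.82 beside -0.01 over all tested genes. The list was drawn up with earlier results of these data known. Lyve1, a hyaluronan receptor of resident macrophages and lymphatic endothelium, stood at 35.2 CPM in members of replicate 1 and 1.22 CPM in replicate 3, against 0.679 and 0.0795 CPM in the other C1q macrophages. The log2 difference fitted over both tumours was 5.31 (SE 0.42, edgeR adjusted p = 0.0011), with log2 ratios, computed with a small prior count, of 5.67 in replicate 1 and 3.81 in replicate 3. In replicate 3 the ratio rests on 17 UMIs in members against 4. These UMIs came from few cells, 78 of 512 members and 11 of 398, against 14 of 2193 and 3 of 2126 others. In T cells, gated as above, 0% and 0.141% had a Lyve1 UMI. Free RNA held Lyve1 at 3.95 CPM in replicate 1 and 24.7 CPM in replicate 3, above the 1.22 CPM of the members there. Prox1, which marks lymphatic endothelium, had no UMI in members of either tumour.

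Vsig4, a receptor for complement C3b, followed a similar pattern. It stood at 49.7 and 5.94 CPM in members against 1.31 and 0.159 CPM, a log2 difference of 5.13 (SE 0.37, edgeR adjusted p = 0.0011), with UMIs in 44 and 8 members. Cd163, the haemoglobin-haptoglobin scavenger receptor, was seen in more cells, 191 of 512 and 48 of 398. It stood at 62.4 and 5.80 CPM against 10.8 and 0.656 CPM, a log2 difference of 2.61 (SE 0.36, edgeR adjusted p = 0.00575). For Cd163 the classes overlapped across tumours, since the members of replicate 3 were below the other macrophages of replicate 1. Neither Vsig4 nor Cd163 was called with DESeq2.

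The remaining called members of that list were more evenly shared between the tumours. F13a1, the catalytic subunit of coagulation factor XIII, stood at 437 and 174 CPM in members against 143 and 42.1 CPM, with no overlap between the classes. Gas6, which bridges dying cells to phagocyte receptors, stood at 278 and 155 CPM against 132 and 50.7 CPM. Stab1, a scavenger receptor, stood at 296 and 283 CPM against 151 and 116 CPM. The log2 differences were 1.76 (SE 0.18), 1.28 (SE 0.15) and 1.07 (SE 0.13), with edgeR adjusted p-values of 0.00184, 0.00243 and 0.00317. Siglec1, a sialic acid receptor, was higher by 0.87 (SE 0.18, edgeR adjusted p = 0.0427) and lost its call in several settings, among them without either tumour, with free RNA subtracted and at the mitochondrial limit of 5%.

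Several classical markers did not pass. Mrc1 stood at 857 and 517 CPM in members against 485 and 285 CPM (log2 difference 0.78, SE 0.22, edgeR adjusted p = 0.137). The transcription factor Maf stood at 389 and 254 CPM against 234.5 and 148 CPM (0.69, SE 0.15, edgeR adjusted p = 0.0523), and was called under 7 of the 15 alternatives. Timd4, a phosphatidylserine receptor of long-lived resident macrophages, stood at 10.5 and 4.01 CPM against 3.42 and 3.16 CPM (1.04, SE 0.36, edgeR adjusted p = 0.233). Cd209f, Cd209g, Marco and Cd5l were too low to be tested. By these markers the resident identity of the label rests on part of the usual genes, and the cells are named here by the genes of the gate.

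**Figure D3:**
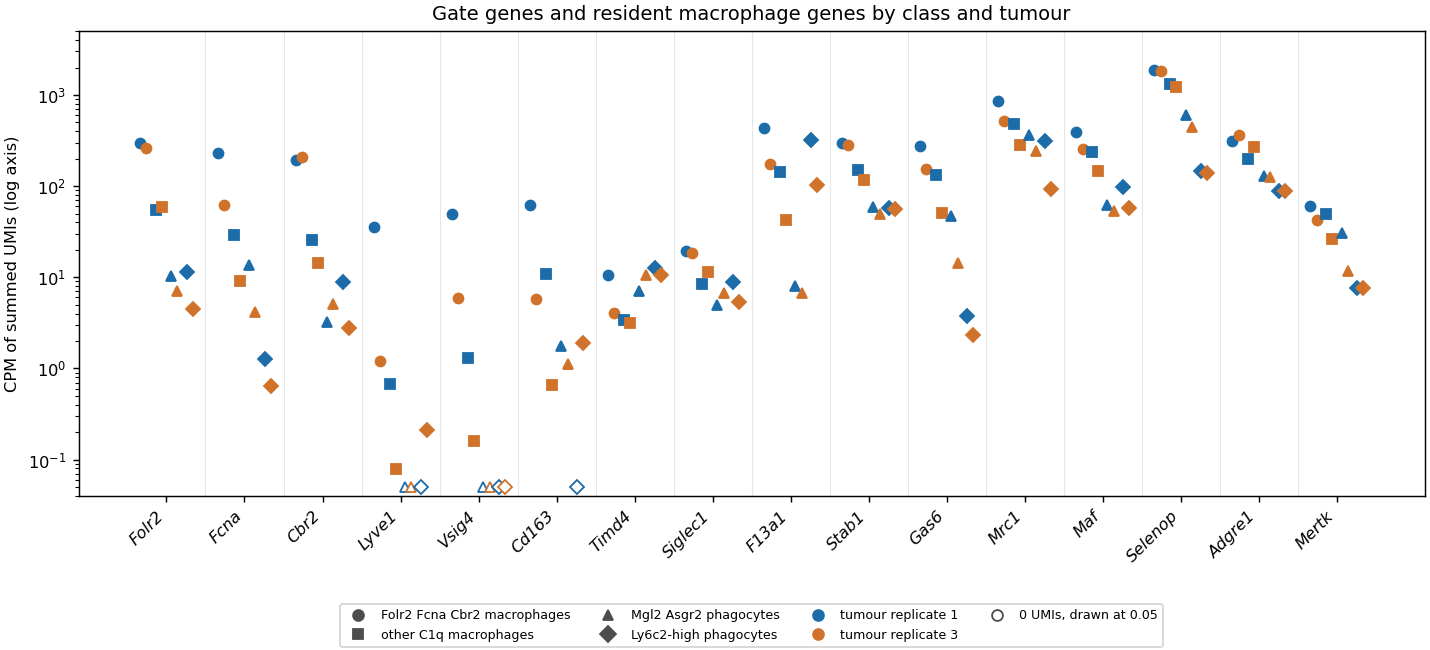
CPM of summed UMIs (log axis) for the 3 defining genes and 13 resident macrophage genes in members, other C1q macrophages, Mgl2 Asgr2 phagocytes and Ly6c2-high phagocytes, with 1 symbol per class and 1 colour per tumour, and open symbols for 0 UMIs. Lyve1, Vsig4 and Cd163 are lower in members of replicate 3 than of replicate 1, while Stab1, Selenop and Adgre1 are near equal.

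Lyve1-positive members differed from the rest of the members of replicate 1 in some genes and were close in others. There, 78 members (15.2%) had a Lyve1 UMI, at a median of 26465 UMIs per cell against 22411.5 for the 434 without. Their Vsig4 level was 247 CPM against 9.69 CPM. Their Fcna level was 541 CPM against 166 CPM, and F13a1 stood at 853 against 353 CPM. H2-Aa was lower in them, at 1042 against 3455.5 CPM. Selenop (1977 against 1835 CPM) and Pf4 (698 against 734 CPM) were close. In replicate 3 only 11 members (2.76%) had a Lyve1 UMI, with Vsig4 at 48.9 against 4.51 CPM and H2-Aa at 2921 against 4988 CPM. These sets were split on a measured gene and were not tested.

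Outside the resident list, the genes with the largest differences at 50 CPM or more included more of the same functions. C4b, a complement component, stood at 118 and 45.7 CPM in members against 23.4 and 16.4 CPM, with no overlap (log2 difference 1.86, SE 0.17, edgeR adjusted p = 0.0011). Its near-identical copy C4a could share reads with it, and the handling of such reads is not given in the sources used here. Ltc4s, which makes leukotriene C4, stood at 153 and 42.2 CPM against 49.5 and 11.4 CPM, so the classes overlapped across tumours. Wfdc17, a small secreted protein with a protease-inhibitor fold, stood at 1102 and 387 CPM against 369 and 129 CPM. Fcrls, an Fc receptor-like protein of macrophages and microglia, stood at 524 and 339 CPM against 198 and 106 CPM. The log2 differences of these 3 were 1.67 (SE 0.25), 1.52 (SE 0.22) and 1.48 (SE 0.24), with edgeR adjusted p-values of 0.0081, 0.00719 and 0.0112.

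Further genes of this rank were Serpinb6a, a serine protease inhibitor (1.24), Itsn1, an endocytic scaffold (1.15), Pmp22, a membrane protein (1.14), Nrp1, a co-receptor for VEGF and semaphorins (1.09), and Npl, which degrades sialic acid (1.07). Itsn1 stood at 62.2 and 44.3 CPM in members against 29.4 and 17.3 CPM. Nrp1 stood at 194 and 123 CPM against 84.5 and 56.4 CPM. For both, members of each tumour were above the other macrophages of either tumour.

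Scavenging and efferocytosis genes were split. Of 18 tested, 5 were higher (Gas6, Stab1, Cd163, Colec12 and Lrp1), 1 was lower (Axl) and 12 did not pass, with a median of 0.36. Axl, one of the receptors of Gas6, stood at 107 and 87.1 CPM in members against 183 and 149.5 CPM (log2 difference -0.84, SE 0.10, edgeR adjusted p = 0.00317). Mertk, another receptor of Gas6, stood at 60.7 and 42.65 CPM against 49.99 and 26.3 CPM and did not pass (0.42, SE 0.15, edgeR adjusted p = 0.269). Of Gas6 and these receptors, Gas6 alone was called higher.

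Several lists had only a small number of calls in this comparison, where 1.76% of all tested genes were called (1.08% higher, 0.678% lower). The counts that follow were not below that share. Of 19 C-type lectin receptors only Colec12, a scavenger collectin, was called, higher at 18.9 and 19.75 CPM in members against 9.30 and 7.455 CPM. Of 17 chemokine and growth factor receptors only Nrp1 was called, and of 19 Fc and pattern-recognition receptors only Fcgrt, the neonatal Fc receptor, higher at 476 and 284 CPM against 256 and 156 CPM. Of 22 lipid and lysosome genes Ctsd and Fabp3 were higher, and of 18 checkpoint and costimulation genes Vsig4 was higher and Pdcd1lg2, the ligand PD-L2, lower. Of 18 dissociation stress genes, which cells can induce during digestion, Btg2 and Socs3 were lower, none were higher and 1 had a positive difference (median -0.21). Btg2 stood at 188 and 168.5 CPM against 291 and 249 CPM, and the part of this list in the other differences was not tested.

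Of 17 haem and iron genes, Cd163 and Ncoa4, the cargo receptor for ferritin breakdown, were higher and 15 did not pass (median 0.25). None of 16 folate uptake and one-carbon genes other than Folr2 passed in edgeR (2 at an unadjusted p under 0.05) or DESeq2 (median -0.09). The proton-coupled folate transporter Slc46a1 stood at 4.26 and 2.93 CPM against 2.61 and 2.545 CPM, and methionine synthase, Mtr, at 23.9 and 16.4 CPM against 21.3 and 14.4 CPM.

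Growth factor and repair genes were called in 5 of 22 (median -0.07). Igf1 stood at 26.0 and 7.44 CPM in members against 8.49 and 1.37 CPM, a log2 difference of 1.87 (SE 0.32, edgeR adjusted p = 0.0154). Pdgfc, a platelet-derived growth factor, was higher by 1.09 (SE 0.13) and Timp2, an inhibitor of matrix proteases, by 0.86 (SE 0.09). F13a1 was the fourth higher gene. Spp1, which encodes osteopontin, was lower, at 126 and 279 CPM against 281 and 576 CPM (-1.16, SE 0.21, edgeR adjusted p = 0.0182). Vegfa did not pass, at 154 and 70.2 CPM against 246 and 88.7 CPM.

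MHC class II presentation genes were lower in members. Of 11 tested, 8 were lower, none were higher and 3 did not pass, with a median of -0.97. H2-Aa, an alpha chain, stood at 3049 and 4922 CPM in members against 7575 and 9678 CPM (log2 difference -1.20, SE 0.18, edgeR adjusted p = 0.00939). Cd74, the invariant chain, stood at 9309 and 15106 CPM against 19810 and 27943 CPM (-1.05, SE 0.15, edgeR adjusted p = 0.00624). Ciita, the master activator of these genes, stood at 36.0 and 37.5 CPM against 76.4 and 65.8 CPM (-1.01, SE 0.12, edgeR adjusted p = 0.00296). In all 3 the members of both tumours were below the other macrophages of both.

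The genes of the group that did not pass were H2-Oa, H2-Ob and Ctss. Ctss, the protease that trims the invariant chain, stood at 3331 and 3569 CPM in members against 3472 and 3646 CPM (-0.11, SE 0.09, edgeR adjusted p = 0.732). Dendritic cell markers, which can accompany MHC class II, summed to 8.92 and 15.2 CPM in members against 6.56 and 13.7 CPM in the other C1q macrophages. Without replicate 1, the calls of all 8 genes were lost, with each still lower in members. Without replicate 3, 5 of the 8 were still called.

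**Figure D4:**
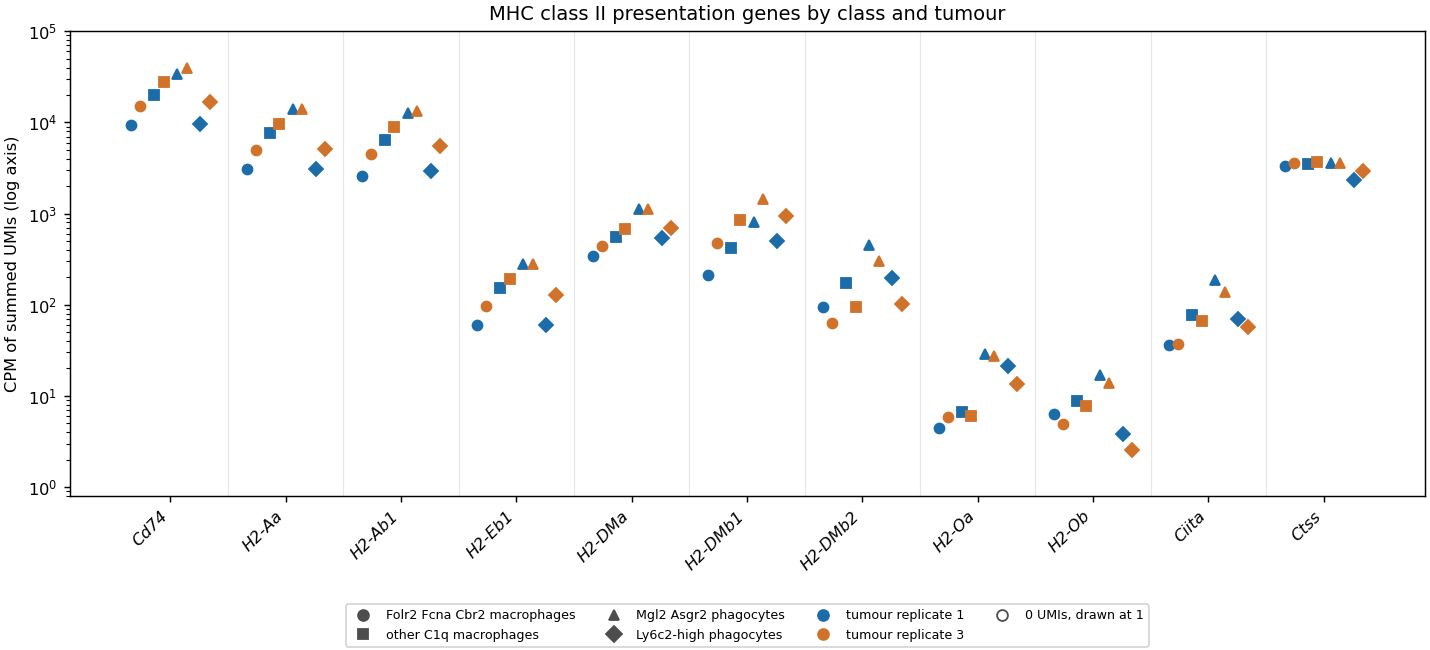
CPM of summed UMIs (log axis) for 11 MHC class II presentation genes in the same 4 classes and both tumours. Members lie below the other C1q macrophages of their tumour for H2-Aa, H2-Ab1, H2-Eb1 and Cd74, the Mgl2 Asgr2 phagocytes lie highest, and Ctss is near level in members, other C1q macrophages and Mgl2 Asgr2 phagocytes.

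Of 23 chemokine genes tested, only Cxcl13 was called, lower in members. Its UMIs in the comparison class came from 3 cells in replicate 1, 1 of which held 91 of the 93 UMIs, and from 31 cells in replicate 3. Ccl8, a ligand for several chemokine receptors, stood at 2031 and 2425 CPM in members against 619 and 1028 CPM and did not pass (log2 difference 1.41, SE 0.34, edgeR adjusted p = 0.0725), although the classes did not overlap. It was called under 5 of the alternatives. Pf4 stood at 728 and 458 CPM against 531 and 231 CPM and also missed the threshold (0.66, SE 0.15, edgeR adjusted p = 0.0637).

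None of the interferon-stimulated genes (24 tested), inflammatory cytokines (16), hypoxia and glycolysis genes (20) or cell cycle genes outside the gate (22) passed the edgeR test in this comparison, nor did any with DESeq2. At an unadjusted p under 0.05 edgeR had 4, 5, 1 and 2 of them. Of 17 monocyte genes only Sirpb1c, a signal-regulatory protein, was called, lower at 21.1 and 25.9 CPM against 49.5 and 59.2 CPM; it belongs to a family of close copies. Ccr2, the receptor that brings monocytes out of marrow, stood at 55.75 and 195 CPM in members against 177 and 381 CPM (-1.27, SE 0.38, edgeR adjusted p = 0.164). Bcl2a1a, a survival gene from a cluster of near-identical copies, was lower (-0.90, SE 0.11), and Napsa, an aspartic protease, had a log2 difference of -1.09. Among macrophage transcription factors (31 tested), Bhlhe41, a factor of self-renewing macrophages, was higher (1.18, SE 0.13) and Batf3, a dendritic cell factor, lower (-0.74, SE 0.15).

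Against the Ly6c2-high phagocytes, the class nearest to monocytes here, more genes were called. That class had Csf1r, at least 3 Ly6c2 UMIs and under 0.2% of C1q, and held 58 cells in replicate 1 and 301 in replicate 3 at median depths of 12980.5 and 14253 UMIs. Members were higher in 1698 and lower in 1744 of 11942 genes (28.8% called by edgeR), and 3382 of the 3442 had the same direction in both tumours. Without replicate 3 the count was 1284. The comparison class was mixed, since its dendritic cell list summed to 50.4 and 232 CPM and a single cell of replicate 1 held 16142 Igkc UMIs. The values of Igkc, Ly6d and Cd209d, which rest on such cells or on 1 tumour, are not described further.

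All 17 tested of 18 listed monocyte genes were lower in members in this comparison. The classes were gated on Ly6c2 and on C1q, so genes that vary with these will differ between them. The calls describe what goes with the gates and are not independent evidence for a cell type. Plac8 stood at 16.3 and 45.5 CPM in members against 923 and 1466 CPM. Ccr2 stood at 55.75 and 195 CPM against 836 and 666 CPM (log2 difference -2.73, SE 0.41, edgeR adjusted p = 0.000699). Chil3, a chitinase-like protein of monocytes and neutrophils, stood at 0.237 and 3.29 CPM against 558 and 133 CPM. The share of called lower genes over all tested genes was 14.6%.

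The resident list was higher in 12 and lower in 1 of 16 (Cd209d, which had no UMI in the Ly6c2-high phagocytes of replicate 1). The background of higher calls was 14.2%. The median was 2.21, or 2.04 with genes absent from the comparison class set against a floor of 3 UMIs per tumour. Selenop, which carries selenium, stood at 1859 and 1829 CPM in members against 146 and 139 CPM (log2 difference 3.70, SE 0.13, edgeR adjusted p = 8.65e-08). It was not called against the other C1q macrophages, where thinned cells had a median of 5 Selenop UMIs in each tumour, against 8 in members. The higher Selenop level was thus not shown to be particular to members. Gas6 stood at 278 and 155 CPM against 3.78 and 2.35 CPM. F13a1, in contrast, was close between the classes, at 437 and 174 CPM against 322.5 and 104 CPM (0.61, SE 0.19, edgeR adjusted p = 0.0322). Vsig4 had no UMI in the Ly6c2-high phagocytes of either tumour, which allows up to 5.17% and 0.997% of cells with a UMI and sets no limit on cells that express the gene. Against that floor in each tumour, members were 13.1-fold higher in replicate 1 and 9.27-fold higher in replicate 3. The floor treats UMIs as independent, yet the 629 and 83 Vsig4 UMIs of members came from 44 and 8 cells. These folds are thus not strict lower limits.

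Haem and iron genes, of which 2 passed against the other C1q macrophages, were higher in 13 of 17 here and none were lower (median 0.99). Hmox1, haem oxygenase, stood at 335 and 175.5 CPM in members against 71.8 and 61.1 CPM. Hpgds, a prostaglandin D synthase listed with them, stood at 156 and 84.0 CPM against 7.56 and 6.83 CPM. Of 22 lipid and lysosome genes 10 were higher and 3 lower. The shares of all tested genes called higher and lower were 14.2% and 14.6%. Apoe stood at 33427 and 23425 CPM in members against 2902 and 2479 CPM. It was not called against the other C1q macrophages. In thinned cells the Apoe median was 171.5 and 111.5 UMIs in members against 154 and 68 UMIs in that class. The higher Apoe level was thus not shown to be particular to members. MHC class II genes did not share one direction: 2 were higher, 5 lower and 4 did not pass. H2-Aa stood at 3049 and 4922 CPM against 3067 and 5163 CPM (-0.03, SE 0.18, edgeR adjusted p = 0.932).

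The third class compared carries Mgl2 and Asgr2, C-type lectins of macrophages and dendritic cells, and held 145 and 200 cells at median depths of 22127 and 27492 UMIs, close to those of members. Members were higher in 1076 and lower in 1156 of 11942 genes (18.7% called by edgeR), with 2229 of 2232 in the same direction in both tumours. Leaving out replicate 1 or replicate 3 gave 607 and 547 calls. Genes that vary with the gate genes of either class will differ here too, so these calls are not independent evidence for a cell type. Of the MHC class II genes 10 of 11 were lower (background of lower calls 9.68%) and Ctss did not pass. H2-Aa stood at 3049 and 4922 CPM in members against 14027 and 14049 CPM (log2 difference -1.95, SE 0.19, edgeR adjusted p = 6.1e-05).

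Of the resident list 12 were higher and 2 lower of 16 (background of higher calls 9.01%, median 1.65). F13a1 stood at 437 and 174 CPM in members against 7.95 and 6.77 CPM (5.11, SE 0.25, edgeR adjusted p = 2.36e-06). Neither Lyve1 nor Vsig4 had a UMI in the Mgl2 Asgr2 phagocytes, which allows up to 2.07% of cells with a UMI in replicate 1 and 1.5% in replicate 3. Against a floor of 3 UMIs in each tumour, Lyve1 was 39.9-fold higher in members of replicate 1 and 2.52-fold higher in replicate 3. For Vsig4 members were 56.2-fold and 12.3-fold higher. The UMIs of both genes came from few members, while the floor treats UMIs as independent, so these folds are not strict lower limits. With both genes at the lower of these folds, the median of the list was 1.45. The lower genes were Cd209b and Cd209d, lectins of some resident macrophages.

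Chemokines divided between these classes. Of 23, 5 were higher in members (Pf4, Ccl8, Ccl7, Ccl12 and Ccl2) and 6 lower, beside 9.01% and 9.68% of all tested genes. Ccl8 stood at 2031 and 2425 CPM against 78.6 and 265 CPM (3.71, SE 0.38, edgeR adjusted p = 9.04e-05). Ccl17, a T cell attractant typical of dendritic cells, stood at 3.40 and 10.7 CPM against 113 and 140 CPM (-4.28, SE 0.30). Cd209a, a dendritic cell lectin, stood at 3.24 and 5.22 CPM against 47.4 and 61.1 CPM. Dcstamp, a gene of fusing osteoclasts and dendritic cells, was lower by a log2 difference of -4.21 and Cdh1, E-cadherin, by -3.43. Ctsd, a lysosomal protease, stood at 2177 and 1856 CPM against 485 and 327 CPM.

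Members were not uniform. With each member thinned to 5000 UMIs, the genes outside the gate with the largest variance relative to the mean in both tumours were Cd74, Apoe, Ccl8, H2-Aa, H2-Ab1, Lyz2, Cxcl9, Gzmc, Malat1, Ccl12, Cxcl2 and Ctsk. Cd74 ran from 1 UMI at the 10th percentile to 118 at the 90th in replicate 1 and from 2.7 to 174 in replicate 3. No H2-Aa UMI was found in 25.8% and 11.1% of thinned members, against 7.07% and 5.19% of the other C1q macrophages. H2-Aa and H2-Ab1 varied together over members (Spearman 0.915 and 0.943, n = 512 and 398). Ccl8 had no UMI in 31.4% and 39.7% of members and reached 134 and 324 UMIs in single cells. Its correlation with H2-Aa was -0.03 in replicate 1 and 0.40 in replicate 3, so the tumours differed in it.

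Some of this variation came from few cells. Gzmc, a granzyme of cytotoxic lymphocytes, had a UMI in 1.56% and 0.754% of thinned members. Ctsk, a bone matrix protease of osteoclasts, had a UMI in 1.17% and 1.76%. Cxcl9, an interferon-gamma target, had a UMI in 6.05% and 11.1% of members, with up to 54 UMIs in 1 cell of each tumour.

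Cells that met the Folr2 and Fcna or Cbr2 limits but had 4 or more UMIs of Mki67 and Top2a were outside the gate. There were 41 in replicate 1 and 113 in replicate 3. They were 7.41% (5.37 to 9.92) and 22.1% (18.6 to 26.0) of the C1q macrophages within those limits, against 4.998% (4.17 to 5.94) and 16.5% (15.2 to 18.0) of those outside. After thinning to 5000 UMIs, the shares with at least 1 such UMI were 11.03% (8.54 to 13.94) against 10.45% (9.24 to 11.75) in replicate 1. In replicate 3 they were 25.2% (21.5 to 29.25) against 22.2% (20.65 to 23.8). At this equal depth the shares were close, with overlapping intervals in each tumour. The limits on Folr2, Fcna and Cbr2 still used raw UMIs, which favours deeply sequenced cells. Cells of 1 library are not replicates, so these shares were not tested.

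The spatial codes of members were close to those of the other C1q macrophages. The labels used here do not say which region a code marks. In replicate 1 the median member had 31.4% of its code UMIs from ZC1, 24.8% from ZC2 and 41.6% from ZC5, against 31.7%, 24.5% and 41.35% in the other C1q macrophages. In replicate 3 the values were 8.03% for ZC1, 24.5% for ZC5 and 66.3% for ZC6, against 7.30%, 24.6% and 67.3%. The Ly6c2-high phagocytes had 55.2% from ZC1 in replicate 1 (58 cells) and 9.76% in replicate 3. Members carried more code UMIs per cell, with medians of 727.5 and 434.5 against 451 and 269.5, as they did gene UMIs. With 2 tumours and different code sets these shares were not tested. The reporters gave 17 YFP and 8 RFP UMIs over all members of replicate 1, and 1 and 5 in replicate 3.

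**Figure D5:**
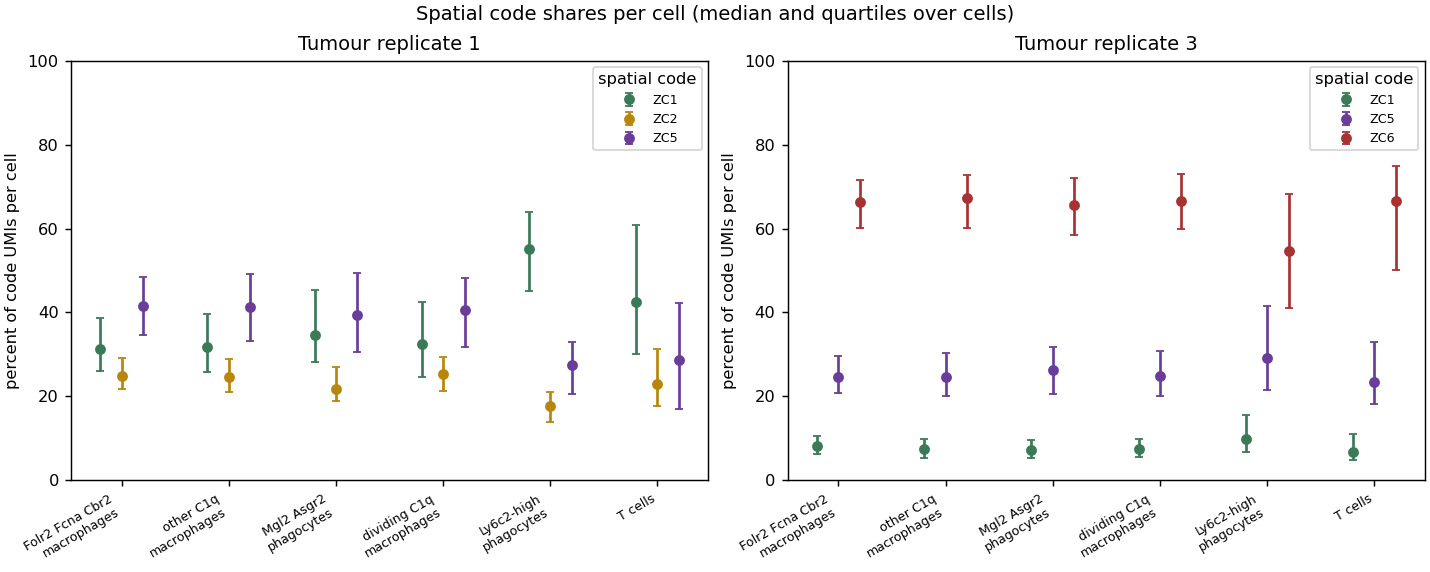
Percent of a cell's spatial code UMIs from each code, as the median (point) and quartiles (bars) over cells with at least 20 code UMIs, by class and tumour. Members and other C1q macrophages have near-equal medians for each code, while ZC1 leads in the Ly6c2-high phagocytes and the T cells of replicate 1.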

How the data were processed

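Both deposited matrices hold UMI counts per feature and barcode, whole numbers the authors had not normalised, made with Cell Ranger 4.0 and mm10 per the submitters' processing notes. Each matrix lists 6794880 barcodes and 31055 genes. For multi-gene reads and the annotation release, the handling was not given in the sources used here, and no cell annotation was used. Cells, members and comparison classes were gated on raw counts; Mgl2 Asgr2 phagocytes had at least 3 Mgl2 and 2 Asgr2 UMIs, and T cells at least 2 Cd3e UMIs. Members and lists were chosen with earlier results of these data known. The result of 1 gene list is not reported here.

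UMIs were summed for 5 classes in each tumour and fitted together in edgeR 4.0.16 (R 4.3.3, limma 3.58.1) with TMM, filterByExpr, the quasi-likelihood test and the tumour as a block, leaving 4 residual degrees of freedom; standard errors derive from the F statistic. The 13 gate genes of all classes entered the library sizes and were not tested. The block rests on the shared tumour: over 10 class pairs, deviations from class means correlated at 0.18 to 0.843. In simulated counts the test recovered most changed genes, but called too many unchanged genes when each gene kept its own estimated dispersion. Named genes were list members and, by rank, the 12 highest and 10 lowest differences from the other C1q macrophages (6 each for the other classes) among called genes with 1 direction in both tumours and at least 50 CPM in the higher class, leaving out unnamed gene models, mitochondrial, ribosomal protein and sex-linked genes.

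Scrublet's own threshold, run in scanpy 1.11.5, marked 0 barcodes in either tumour and had not worked, so doublets were kept, and the top 0.8% of scores per 1000 cells were removed only as an alternative (186 and 363 barcodes). Other alternatives were DESeq2 1.42.0, its size factors, no count filter, no block, each tumour left out, other depth, mitochondrial, C1q and gate limits, 10% of free RNA subtracted, and comparison cells without gate UMIs; 2 other edgeR settings and the shares without 1 tumour were added after seeing the data. Gating and plots used Python 3.11.15 (pandas 2.3.3, numpy 2.4.6, scipy 1.17.1) and matplotlib 3.10.9.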

Additional observations from a re-analysis of the deposited data

How the results depend on the processing

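Against the other C1q macrophages, 210 genes were called with the tumour as a block and 0 without the replicate block (265 at an unadjusted p under 0.05 in edgeR; 224 in DESeq2 with the block), while all 210 kept their direction. The counts were 700 without the count filter, 129 at the 5% mitochondrial limit, 391 with the gate at 4 Folr2 and 6 Fcna plus Cbr2 UMIs, 95 (45 higher, 50 lower) with free RNA subtracted, and 811 (406 higher, 405 lower) against cells with no gate UMI. Leaving out 1 tumour gave 21 to 51 calls, and 1284 to 2576 against the Ly6c2-high phagocytes and 547 to 607 against the Mgl2 Asgr2 phagocytes, where the fits without the block gave 1123 and 329. Fits without 1 tumour dropped only the compared classes of that tumour, and its other classes stayed in the fit. They have fewer samples, and the lone sample of each compared class is assumed to vary like the other classes. For the other settings the cause was not tested. With the settings added later, 171 (bias-adjusted deviances) and 231 (robust estimation) genes were called. Against the Ly6c2-high phagocytes, 9 named genes changed sign, each without replicate 3: with 1 tumour left out, the log2 difference ranged from -6.27 to 5.76 for Cd209d and from -0.045 to 0.0273 for H2-Aa, which was not called. For Rsad2 it ranged from -2.99 to 0.96, for Mx1 from -2.53 to 0.66, for Ifit1 from -2.03 to 0.288, for Stat2 from -1.10 to 0.25, for Igtp from -0.87 to 0.082, for Gbp5 from -0.82 to 0.11 and for Cd274 from -1.61 to 0.49. Members were 13.7% of non-dividing C1q macrophages at the 5% mitochondrial limit. With the gate at 1 and 2 UMIs they were 12.5% of cells and 24.7% of those macrophages, at 4 and 6 UMIs 3.98% and 7.97%, and after thinning to 5000 UMIs 1.61% and 2.5%. Depth and the number of tumours (2) limit low genes such as Lyve1 and Vsig4.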

Other observations

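Transcription factors, interferon-stimulated genes and surface regulators also differed between members and the 2 other phagocyte classes. Bhlhe41 stood at 41.0 and 16.6 CPM in members against 1.26 and 0.641 CPM in the Ly6c2-high phagocytes and 2.65 and 0.967 CPM in the Mgl2 Asgr2 phagocytes, and edgeR called both differences (log2 4.77, SE 0.36, and 3.92, SE 0.24). Nr1h3, the oxysterol receptor LXR alpha, stood at 15.6 and 25.9 CPM against 5.04 and 9.82 CPM and 5.60 and 6.61 CPM, and was called higher in both. Irf4, a factor of dendritic cells and of alternatively activated macrophages, stood at 2.84 and 3.86 CPM against 13.9 and 10.0 CPM and 10.3 and 9.02 CPM, and was called lower in both. The fractalkine receptor Cx3cr1 stood at 641 and 625 CPM against 116 and 123 CPM and 349 and 318 CPM, higher in both comparisons. Against the other C1q macrophages Bhlhe41 was called, while Nr1h3, Irf4 and Cx3cr1 were not. The differences in the latter genes were thus not shown to be particular to members.

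Interferon-stimulated genes were lower in members in 17 of 24 against the Ly6c2-high phagocytes and in 10 of 24 against the Mgl2 Asgr2 phagocytes, with none higher (medians -1.06 and -0.54). The shares of all genes called lower were 14.6% and 9.68%. Against the Ly6c2-high phagocytes, 6 of the 17 (Ifit1, Rsad2, Mx1, Stat2, Gbp5 and Igtp) were not lower in members of replicate 1, so that count leans on replicate 3. DESeq2 called 15 and 5 of the 24. Ifitm3 stood at 596 and 727.5 CPM in members against 2143 and 2313 CPM and 833 and 1044 CPM. Of 18 checkpoint and costimulation genes 8 were lower and 4 higher against the first class, and 7 lower and 3 higher against the second, beside 14.2% and 9.01% of all genes called higher. Of the 12 called against the first class, Cd274 differed in direction between the tumours. Ptgs2, the inducible cyclooxygenase, stood at 19.0 and 28.0 CPM against 83.1 and 127 CPM and 47.7 and 98.1 CPM. Both comparisons share the members, so their calls are not independent of each other.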
